A study of Mus musculus with 16 samples.

Results

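The differentiation of control C2C12 cells, a mouse myoblast line, was followed by small RNA sequencing of 8 libraries out of the 16 in the series. Cells labelled wild-type were taken as 2 control populations, each with replicates 1 and 2, in growth medium (GM, 20% fetal bovine serum, about 80% confluent) and after 3 days in differentiation medium (DM3, 2% horse serum), which gave 4 libraries a side. The labels describe all of these cultures as C2C12 PAX7 NEG cells, and the remaining 8 libraries, from 2 triple knockout clones (tKO) without miR-206 and without both copies of miR-1a (miR-1a-1, miR-1a-2), were used for a test of interaction, for their own DM3 against GM values beside it and for an alternative fit. Each GM library has a DM3 partner of the same population and replicate number. The titles number the replicates BR1 and BR2, and nothing in the labels says what BR stands for or that they were separate cultures. The p-values therefore measure the spread between these libraries of 2 populations only, and the part between replicates may be technical. All are bulk libraries of a culture in which myoblasts and myotubes can coexist, so that fewer cells of a type and less RNA per cell cannot be told apart.

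MicroRNAs are short RNAs cut from the stem of a hairpin precursor. One strand, the guide, usually enters the silencing complex and the other, the passenger, is mostly degraded, so each hairpin gives a 5p and a 3p arm of unequal abundance. The guide finds its targets mainly through bases 2 to 8, the seed, and miRNAs with the same seed are grouped in a family. Skeletal muscle has its own set: miR-1, miR-133 and miR-206 are transcribed under myogenic factors such as MyoD and myogenin as myoblasts leave the cell cycle and fuse, whereas the miR-17-92 cluster, a target of MYC and E2F, and the pair miR-221 and miR-222, which represses the cell cycle inhibitor p27, are associated with proliferation.

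Mature forms of a selection of changed guides and passenger strands are shown to let shared seeds be compared, printed 5′ to 3′ as in RefSeq on GRCm38.p6 with the seed in capitals. The guides with the largest rises, miR-133a-3p and miR-133b-3p, are not among them. Those higher in DM3 were as follows.
miR-206-3p: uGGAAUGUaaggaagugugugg
miR-27b-3p: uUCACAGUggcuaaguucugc
miR-27a-3p: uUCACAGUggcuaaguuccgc
miR-24-1-5p: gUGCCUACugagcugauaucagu
miR-675-3p: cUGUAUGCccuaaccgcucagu
miR-675-5p: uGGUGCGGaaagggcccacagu
miR-351-5p: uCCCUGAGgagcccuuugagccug
MiR-27a-3p and miR-27b-3p share the seed UCACAGU, and the seed GGAAUGU of miR-206-3p is also that of miR-1a-3p.

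Those lower in DM3 were grouped by shared seed where one was shared, as in the miR-92a and miR-25, the miR-17 and miR-20a, and the miR-221 and miR-222 pairs.
miR-92a-3p: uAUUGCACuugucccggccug
miR-25-3p: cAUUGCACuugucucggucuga
miR-17-5p: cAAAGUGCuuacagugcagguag
miR-20a-5p: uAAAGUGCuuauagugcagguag
miR-221-3p: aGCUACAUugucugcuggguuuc
miR-222-3p: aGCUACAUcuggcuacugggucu
miR-7a-5p: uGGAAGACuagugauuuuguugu
miR-125b-5p: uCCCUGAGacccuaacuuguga
miR-125b-1-3p: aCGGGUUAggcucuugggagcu
miR-100-5p: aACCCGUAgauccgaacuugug
let-7e-5p: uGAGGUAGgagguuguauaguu
miR-29b-1-5p: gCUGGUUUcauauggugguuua
MiR-125b-5p, which was lower in DM3, and miR-351-5p, which was higher, carry the same seed, CCCUGAG.

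Reads of 18 to 25 nt without a mismatch were counted per miRNA name, 443286 to 5726648 reads in a GM library and 194915 to 2535103 in a DM3 library, and the DM3 library of each pair was the shallower. In GM libraries 86.5% to 88.3% of the listed reads met these criteria, and 73.1% to 84.7% did in DM3. Listed reads under 18 nt were 1.88% to 2.95% in GM and 4.76% to 12.8% in DM3, and their part in the differences was not tested. At least 99.5% of the counted reads of each control library came from sequences found in an annotated hairpin. The DM3 library of population 1, replicate 2 stood apart: miR-6240-3p took 9.79% of its counted reads (95% Wilson interval 9.72% to 9.86%, counting error only), and the names miR-6240 and miR-6236 together took 10.1%, against 2.24% to 2.68% in the other DM3 libraries and 0.189% to 0.803% in GM. Levels below are TMM-scaled counts per 1e6 counted reads (CPM), and where 4 values are given they follow the order population 1 replicate 1, population 2 replicate 1, population 1 replicate 2, population 2 replicate 2. After ± stands the SD over 4 libraries for a level, a share or an arm ratio. For a log2 fold change or a difference it is the standard error. For edgeR this was derived as the absolute log2 fold change divided by the square root of the F statistic of its test. Levels of different miRNAs are compared as reads, since adapter ligation can favour some sequences over others.

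Of 370 miRNA names with enough reads, 141 differed between DM3 and GM (38.1%) by the edgeR quasi-likelihood test at a Benjamini-Hochberg adjusted p under 0.05. There were 68 higher in DM3 (18.4%) and 73 lower (19.7%). The 4 DM3 values lay wholly above or below the 4 GM values for 126 names (34.1%), 57 above (15.4%) and 69 below (18.6%). The median log2 fold change over all names was -0.08 with TMM scaling and 0.03 with total counts, and the calls were 80 higher and 70 lower with total counts. Without both libraries of population 1, replicate 2, the test called 83 names, all of them among the 141. More names were called with all listed rows and lengths, and fewer with counts thinned to the smallest library, as given under processing.

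**Figure D1:**
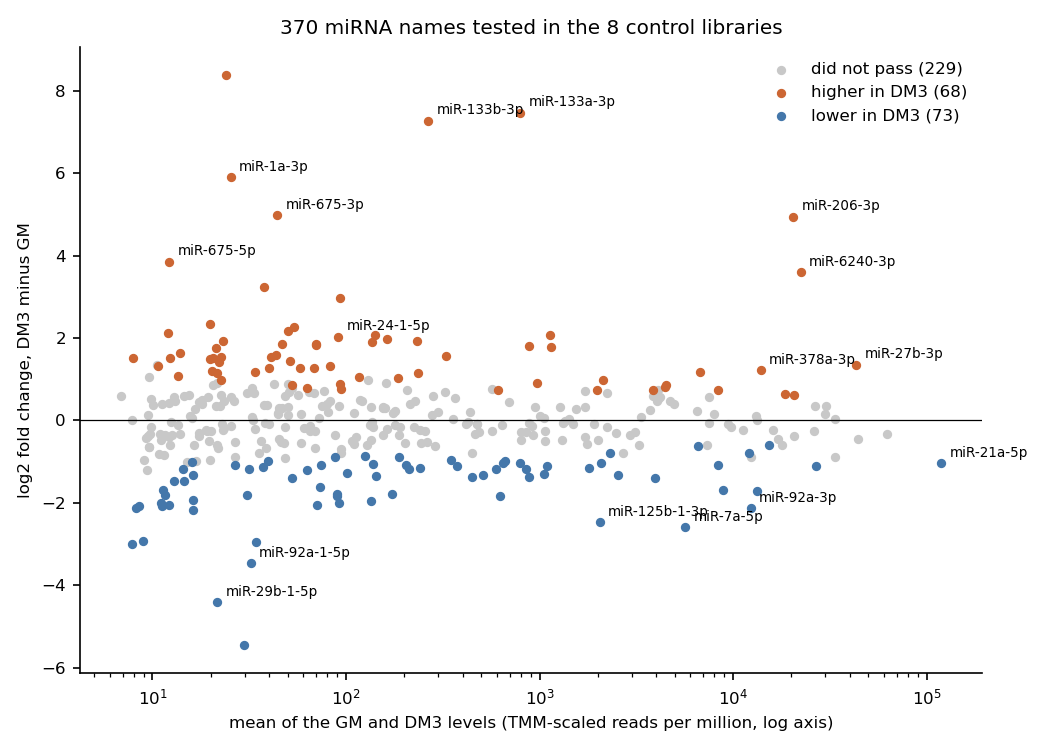
Log2 fold change of DM3 over GM (vertical axis) against the mean of the GM and DM3 levels (horizontal axis, CPM, log scale) for the 370 names tested in the 8 control libraries; colour gives the edgeR call. The highest points are 5 names of the miR-133, miR-1a, miR-206 and miR-675 hairpins and miR-133b-5p, and miR-21a-5p, the most abundant name, lies below zero.

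Muscle miRNAs were among the largest rises. Of the 12 largest called rises at 100 CPM or more and without overlap, miR-133a-3p, miR-133b-3p and miR-206-3p were on the muscle list. MiR-206-3p, which lies at chr1:20679055-20679076, plus strand, in an exon of the lincRNA Gm28653 (GENCODE M21), was measured at 968, 1091, 1431 and 1628 CPM in GM and 18918, 35684, 36419 and 67065 CPM in DM3. Every DM3 library lay far above every GM library, and the DM3 values spread more widely than the GM values. The log2 fold change was 4.95 ± 0.36 (SE), 30.9-fold, with an adjusted p of 9.15e-09 (edgeR). MiR-206-3p, outside the 10 most abundant names in GM, was among them in DM3.

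MiR-133a-3p, whose targets include serum response factor, stood at 7.21, 2.53, 7.91 and 14.6 CPM in GM and 1905, 1396, 1308 and 1704 CPM in DM3. Its DM3 values were close to each other, and its log2 fold change was 7.47 ± 0.45 (edgeR adjusted p = 4.38e-10). MiR-133b-3p, made with miR-206 from one locus, was at 0, 2.53, 3.54 and 4.24 CPM in GM and 684, 478, 434 and 520.3 CPM in DM3, a log2 fold change of 7.27 ± 0.42 (edgeR adjusted p = 4.38e-10). The passenger strand miR-133b-5p had 1 read in the 4 GM libraries together and 187 in DM3, a ratio per scaled read of 630.5 with a 95% counting interval of 112 to 25035.

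MiR-1a-3p, the classical muscle miRNA with the seed of miR-206, stayed rare at day 3. It had 0, 0, 4 and 7 reads in GM and 8, 8, 32 and 230 reads in DM3, or 32.6, 23.9, 48.4 and 96.4 CPM. That DM3 level was far below the 39521 ± 20063 CPM (SD, n = 4) of miR-206-3p, although the edgeR log2 fold change of miR-1a-3p was 5.91 ± 0.59 (adjusted p = 5.81e-07). MiR-486a-5p and miR-486b-5p, near-identical copies of a miRNA enriched in muscle and red cells, had log2 fold changes of 1.43 ± 0.31 and 1.14 ± 0.32 (edgeR adjusted p = 0.00165 and 0.00971), and reads can be split between them uncertainly. For miR-486b-5p the call was lost without the DM3 library of population 1, replicate 2, its highest (adjusted p = 0.0536).

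Of the 16 names on the muscle list, 12 had reads in a control library and 7 had enough for the test, all of them higher in DM3, against 18.4% of all names. Some of the 7, such as miR-133b-5p and miR-1a-3p, were rare in GM and met the minimum count through DM3. For such names being tested nearly fixes a rise, so this count is no test of the list. No read was counted for miR-208a-3p, miR-208b-3p or the passengers miR-1a-2-5p and miR-1a-1-5p in the 8 libraries. The remaining 5 with reads, among them miR-133a-5p, miR-486a-3p and miR-486b-3p, were too rare for the test: miR-499-5p, which marks slow fibres, had 1, 1, 6 and 4 reads in GM and 0, 2, 0 and 9 in DM3. MiR-206-5p, the passenger of miR-206, had 61 reads in the DM3 library of population 2, replicate 2 and at most 2 in any other DM3 library. The summed level of the list ranged from 1221 to 1801 CPM in GM and from 21938 to 69811 CPM in DM3, and miR-206-3p was the largest part of it in each library.

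**Figure D2:**
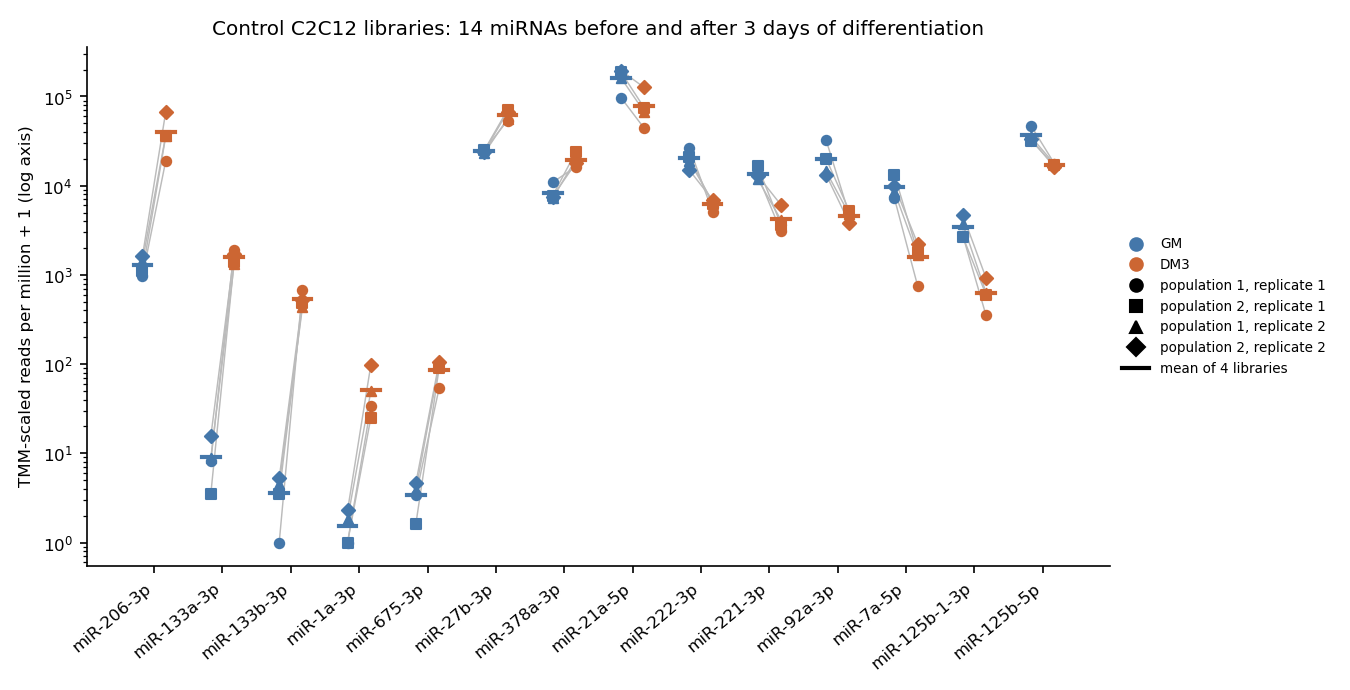
Level of 14 miRNAs in each control library (CPM plus 1, log axis), GM in blue and DM3 in orange, with grey lines joining the libraries of one population and replicate and thick bars for the mean of 4 libraries. MiR-133a-3p goes from at most 14.6 to at least 1308 CPM, and every line of miR-7a-5p and miR-92a-3p falls.

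MiR-675 is cut from the first exon of H19, an imprinted long noncoding RNA that is induced in differentiating muscle. MiR-675-3p lies at chr7:142577078-142577099, minus strand, in an H19 exon, and was measured at 2.40, 0.631, 2.91 and 3.68 CPM in GM and 52.9, 89.7, 96.8 and 104 CPM in DM3. MiR-675-5p of the same hairpin reached 12.2, 20.9, 37.8 and 22.6 CPM in DM3 from 22 reads in all 4 GM libraries. The log2 fold changes were 4.98 ± 0.43 and 3.86 ± 0.54 (edgeR adjusted p = 6.55e-08 and 3.34e-05). Both arms were rare in GM and met the minimum count through DM3, so being tested nearly fixed a rise. When all listed rows were counted, of every length and with or without a mismatch, the rise of miR-675-5p disappeared (log2 fold change -0.02). The 3p arm stayed higher.

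The miR-378 family, encoded in the intron of the metabolic coactivator gene Ppargc1b and in further copies, was higher as well. MiR-378a-3p stood at 10904, 7713, 7217 and 7554 CPM in GM and 16256, 23948, 19788 and 17993 CPM in DM3, so all DM3 libraries exceeded all GM libraries, and its log2 fold change was 1.22 ± 0.23 (edgeR adjusted p = 4.87e-04). Its passenger miR-378a-5p changed by 1.80 ± 0.26 on the log2 scale (edgeR adjusted p = 3.42e-05), from 394 ± 69.0 CPM in GM to 1369.8 ± 113 CPM in DM3. All 4 tested members rose, miR-378b among them, against 18.4% of all names, with a median log2 fold change of 1.36 against -0.08 over all names. The rare miR-378c lost its call without the DM3 library of population 2, replicate 1, its highest (adjusted p = 0.241), and without 3 of the GM libraries.

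MiR-27b-3p, a miRNA that represses Pax3 in muscle progenitors, became the second most abundant name. Its 8 values were 25005, 24909, 23136 and 24118 CPM in GM and 53725, 70742, 56373 and 67435 CPM in DM3, with little spread in GM, and the log2 fold change was 1.35 ± 0.20 (edgeR adjusted p = 6.77e-05). It lies at chr13:63300760-63300780, plus strand, in an exon of 2010111I01Rik, between miR-23b and miR-24-1. MiR-24-1-5p, the passenger strand that only this cluster makes, rose from 34.9 ± 6.23 CPM in GM to 147 ± 14.7 CPM in DM3, 4.10-fold (edgeR adjusted p = 3.34e-05). MiR-23b-3p of the same cluster had a log2 fold change of 0.22 ± 0.23 that did not pass.

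The copy of this cluster on chromosome 8 gave other values. MiR-27a-3p, at chr8:84208727-84208747, plus strand, had a log2 fold change of 0.64 ± 0.22 (edgeR adjusted p = 0.0306), a call lost without any one of 4 libraries (GM of population 1 and of population 2, replicate 1, and DM3 of population 2, replicate 1 and population 1, replicate 2), at most 0.107. MiR-24-2-5p was at 0.67 ± 0.27 and miR-23a-3p at -0.60 ± 0.25, neither of which passed. MiR-27a-5p and miR-23a-5p fell, by 1.85 and 1.69 on the log2 scale (edgeR adjusted p = 1.46e-04 and 0.00446). The mature miR-24-3p is the same from both clusters and stood at 23184 ± 4726 CPM in GM and 29592 ± 6656 CPM in DM3, not a called difference. Of the 11 tested names of the clusters, 3 rose and 2 fell, against 38.1% of all names called in either direction, and the difference between the clusters was not tested.

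Among names that fell, miR-7a-5p, abundant in GM, had the largest change of those above 100 CPM. It was measured at 7197, 13208, 8557 and 9938 CPM in GM and 749, 1782, 1661 and 2232 CPM in DM3, a 6.04-fold lower level in DM3 with a log2 fold change of -2.59 ± 0.32 (edgeR adjusted p = 8.61e-06). All 4 DM3 values were well below the lowest GM value. One copy of the hairpin lies at chr7:78888295-78888317 with no annotated gene over it (GENCODE M21) and the other at chr13:58392841-58392863, minus strand, in an intron of Hnrnpk, and the mature sequence does not tell them apart.

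The miR-17-92 cluster and its copies gave fewer reads. MiR-92a-3p stood at 32526, 20115, 14458 and 13315 CPM in GM and 4705, 5215, 4759 and 3801 CPM in DM3, with 4 DM3 values close together under a wider GM range, and its log2 fold change was -2.12 ± 0.28 (edgeR adjusted p = 2.08e-05). MiR-25-3p, of the same seed and encoded within Mcm7, a gene of the replication helicase, went from 3632 ± 592 CPM in GM to 1455 ± 439 CPM in DM3 (edgeR adjusted p = 0.00103). MiR-17-5p and miR-20a-5p, which share the seed AAAGUGC, had log2 fold changes of -1.17 ± 0.26 and -1.11 ± 0.30 (edgeR adjusted p = 0.00176 and 0.00766). Of the 15 tested names, 10 fell and none rose (of all names 19.7% fell), with a median log2 fold change of -1.17.

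Members of that cluster did not all pass. MiR-19b-3p, from the same transcript as miR-92a, was at -0.26 ± 0.35 and miR-93-5p, from the Mcm7 cluster, at -0.35 ± 0.33 on the log2 scale. The rare miR-92a-1-5p, the passenger strand of the chromosome 14 copy at the Mir17hg locus, was at 50.5, 54.3, 65.3 and 70.9 CPM in GM and 0, 5.98, 1.51 and 8.38 CPM in DM3 (edgeR adjusted p = 2.05e-05). The summed level of the list was 33257 ± 10545 CPM in GM and 11420.0 ± 1479.8 CPM in DM3.

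MiR-221 and miR-222, neighbours on the X chromosome at chrX:19146307-19146329, minus strand and chrX:19146901-19146923, minus strand, fell on both arms. MiR-222-3p was at 26547, 21136, 18808 and 14936 CPM in GM and 5092, 6225, 6628 and 6937 CPM in DM3, and miR-221-3p at 13062, 16417, 11882 and 12997 CPM in GM and 3069, 3663, 4126 and 6089 CPM in DM3, with no overlap for either. The log2 fold changes were -1.71 ± 0.24 and -1.68 ± 0.25 (edgeR adjusted p = 3.32e-05 and 6.65e-05). The passengers miR-222-5p and miR-221-5p fell by 1.84 and 1.79, so all 4 tested names fell, against 19.7% of all names.

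MiR-125b-5p, which represses Igf2, was about evenly low in all DM3 libraries: 46693, 32078, 35209.6 and 33149 CPM in GM and 17664, 16870.0, 17494 and 16187 CPM in DM3, a log2 fold change of -1.11 ± 0.21 (edgeR adjusted p = 5.53e-04). The mature strand comes from copies on chromosomes 9 and 16, but the passengers differ. MiR-125b-1-3p, at chr9:41581980-41582001, plus strand, went from 3469 ± 948 CPM in GM to 625 ± 234 CPM in DM3 (log2 fold change -2.46 ± 0.31, edgeR adjusted p = 1.19e-05), whereas miR-125b-2-3p was at 105 ± 7.97 CPM in GM and 115 ± 35.5 CPM in DM3 and did not pass. MiR-100-5p, the chromosome 9 neighbour of miR-125b-1, had a log2 fold change of -1.07 ± 0.24 (edgeR adjusted p = 0.00196), and miR-99a-5p, from the chromosome 16 locus, one of -0.23 ± 0.27 that did not pass. The difference between the loci was not tested.

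The let-7 family has guides among the most abundant names. Of 9 tested let-7 guides 2 fell and 7 did not pass, against 19.7% of all names lower. Let-7e-5p, in an intron of Spaca6 at chr17:17830366-17830387, plus strand, was at 5197, 7275, 4886 and 5678 CPM in GM and 1245, 1734, 2044 and 3693 CPM in DM3, with a log2 fold change of -1.40 ± 0.30 (edgeR adjusted p = 0.00158). Let-7a-5p had a log2 fold change of -0.59 ± 0.21 (edgeR adjusted p = 0.0379), a call lost with total counts (adjusted p = 0.098) and without each library except the GM libraries of population 1, replicate 1 and population 2, replicate 2, at most 0.141. Let-7i-5p did not pass (28246, 50921, 43450.2 and 52935 CPM in GM and 7399, 19842, 22607 and 44525 CPM in DM3), but it was lower in all 4 pairs and passed with the pairs as a block (adjusted p = 3.76e-06, edgeR). It also passed without the GM library of population 1, replicate 1 or the DM3 library of population 2, replicate 2, at the lowest 1.90e-04.

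MiR-21a-5p, a proliferation-associated miRNA, was the most abundant name in both media. Its values were 97048, 187583, 161424 and 194944 CPM in GM and 43936, 74390.2, 67223 and 126027 CPM in DM3: lower in DM3 in each of the 4 pairs, although the highest DM3 library exceeded the lowest GM library. The log2 fold change was -1.04 ± 0.29 (edgeR adjusted p = 0.00999), and without both libraries of population 1, replicate 2 the adjusted p was 0.055. Let-7c-5p, miR-99b-5p, miR-143-3p, miR-30d-5p and miR-615-3p were among the 10 most abundant names in both media and did not pass. Of these, miR-143-3p, at 22159.5, 33108, 35508 and 42851 CPM in GM and 20574, 33360.3, 34646 and 47878 CPM in DM3, had a log2 fold change of 0.03 ± 0.27 whose sign turned under several alternatives. MiR-26a-5p, which represses Ezh2, did not pass either (28681 ± 5157 CPM in GM and 23950.1 ± 10042 CPM in DM3), and miR-615-3p passed without the GM library of population 1, replicate 1 or the DM3 library of population 2, replicate 2 (adjusted p = 0.032 and 0.044).

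The miR-15 family and the miR-322 cluster share the seed AGCAGCA in part. MiR-15b-5p, from an intron of the condensin gene Smc4, was at 1119.8, 788, 658 and 725 CPM in GM and 374, 389, 333 and 364 CPM in DM3 and fell with a log2 fold change of -1.17 ± 0.27 (edgeR adjusted p = 0.00237). MiR-16-5p, encoded beside it and at a second locus in Dleu2, had a log2 fold change of -1.04 ± 0.36 (adjusted p = 0.0326) that was lost on leaving out any of 6 libraries, at most 0.0986, and kept only without the GM library of population 1, replicate 1 or the DM3 library of population 2, replicate 2. Of 7 tested names of that family outside the X-linked cluster, 5 fell, against 19.7% of all names. In the X-linked cluster 2 of 10 tested names rose, near the 18.4% of all names that did: miR-322-3p (679 ± 170.5 CPM in GM and 1267 ± 244 CPM in DM3) and miR-351-5p (3189.9 ± 841 CPM in GM and 5819 ± 1389 CPM in DM3), with log2 fold changes of 0.90 ± 0.28 and 0.87 ± 0.26 (edgeR adjusted p = 0.0165 and 0.0139). The 5p arm, miR-322-5p, the rarer arm in these libraries, was at 55.3, 157, 156 and 182 CPM in GM and 138, 135, 87.7 and 186 CPM in DM3, with no call, and miR-351-5p missed the threshold without the GM library of population 2, replicate 1 (adjusted p = 0.0516).

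Smaller lists moved in part. All 3 tested names of miR-130 and miR-301 fell, against 19.7% of all names: miR-130b-3p went from 25.6 ± 2.93 CPM in GM to 6.93 ± 3.98 CPM in DM3 and miR-130a-3p from 103 ± 16.5 CPM in GM to 46.8 ± 19.9 CPM in DM3 (edgeR adjusted p = 0.00103 and 0.0165). The other, miR-130b-5p, lost its call without the GM library of population 1, replicate 1 (adjusted p = 0.0712). In the miR-30 family 1 of 11 tested names rose and 3 fell, near the 38.1% of all names called in either direction. The abundant guide miR-30d-5p did not pass. The passengers miR-30b-3p, miR-30c-2-3p and miR-30e-3p fell and miR-30e-5p rose. The log2 fold changes were -1.96 ± 0.34 for miR-30c-2-3p and 0.75 ± 0.26 for miR-30e-5p (edgeR adjusted p = 2.11e-04 and 0.0326). Among the let-7 passengers 4 of 8 tested names fell, let-7b-3p, let-7c-1-3p, let-7e-3p and let-7f-1-3p, against 19.7% of all names. MiR-148b-3p and miR-199a-5p were the single called members of their lists, higher by 0.75 and 0.63 on the log2 scale (edgeR adjusted p = 0.0184 and 0.0379), while none of 5 miR-34 names and none of 3 miR-132 and miR-212 names passed, against 38.1% of all names called. Without the DM3 library of population 2, replicate 1, the calls of let-7e-3p, let-7f-1-3p, miR-130a-3p, miR-148b-3p, miR-199a-5p, miR-30e-3p and miR-30e-5p were lost, with adjusted p from 0.0523 to 0.202. Those of miR-199a-5p and miR-30e-5p were lost with 6 of the 8 libraries left out in turn, that of let-7f-1-3p with 5, those of miR-130a-3p and miR-30e-3p with 3 and that of miR-148b-3p with 2.

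A further 6 called members of the lists were lower in DM3. MiR-15b-3p, a passenger of the miR-15 family, went from 206 ± 72.3 CPM in GM to 77.8 ± 39.1 CPM in DM3 (edgeR adjusted p = 0.00766). MiR-195a-3p of that family went from 50.3 ± 4.75 CPM in GM to 11.4 ± 8.77 CPM in DM3 (edgeR adjusted p = 0.00236). In GM it was the more abundant arm of its hairpin, with the 5p arm at 19.6 ± 11.2 CPM. MiR-29a-5p, the passenger of miR-29a, was at 20.0 ± 4.72 CPM in GM and 4.17 ± 3.79 CPM in DM3 (edgeR adjusted p = 0.00302). These 3 kept their calls with each library left out in turn. MiR-99b-3p had a log2 fold change of -0.79 ± 0.24 (edgeR adjusted p = 0.0177) and lost its call without the DM3 library of population 1, replicate 2 (adjusted p = 0.0522). MiR-181d-5p was the 1 called name of 7 in the miR-181 family and miR-196a-5p, encoded in the Hox clusters, the 1 of 5 in the Hox list, against 38.1% of all names called. Their log2 fold changes were -1.08 ± 0.37 and -1.02 ± 0.36 (edgeR adjusted p = 0.0315 and 0.0352). The call of miR-181d-5p was lost with 5 of the 8 libraries left out in turn, at most 0.0841, and kept without either GM library of population 1 or the DM3 library of population 2, replicate 2. That of miR-196a-5p was lost with 6, at most 0.105, and kept without the GM library of population 1, replicate 1 or the DM3 library of population 2, replicate 2.

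Among single miRNAs studied in myoblasts, 2 of 28 tested names rose and 8 fell, against 38.1% of all names called in either direction. MiR-183-5p was at 5844, 6157, 7031 and 5851 CPM in GM and 9219, 12950.0, 10229 and 9371 CPM in DM3, and miR-140-3p, encoded in Wwp2, at 19536, 15768, 12134 and 13791 CPM in GM and 9434, 10331, 7855 and 8019 CPM in DM3, with log2 fold changes of 0.75 ± 0.22 and -0.78 ± 0.23 (edgeR adjusted p = 0.0131 and 0.0125). The groups of miR-183-5p did not overlap and those of miR-140-3p did not overlap. MiR-31-5p, which represses Myf5 in quiescent satellite cells, went from 7978 ± 585 CPM in GM to 5189.7 ± 957 CPM in DM3 (edgeR adjusted p = 0.0378). MiR-26b-3p, the passenger of miR-26b, fell with a log2 fold change of -1.46 ± 0.45. It was higher, by 1.39, when all listed rows were counted, of every length and with or without a mismatch. Leaving out the DM3 library of population 1, replicate 2 ended the calls of miR-140-3p, miR-26b-3p and miR-31-5p (adjusted p = 0.0666, 0.0536 and 0.155), and leaving out the GM or the DM3 library of population 2, replicate 1 ended that of miR-183-5p (0.0512 and 0.0675). For miR-31-5p leaving out any library but the DM3 library of population 1, replicate 1 ended the call, as did total counts (0.15). MiR-365-2-5p and miR-25-5p, both passengers, fell by 1.78 and 1.99 on the log2 scale.

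**Figure D3:**
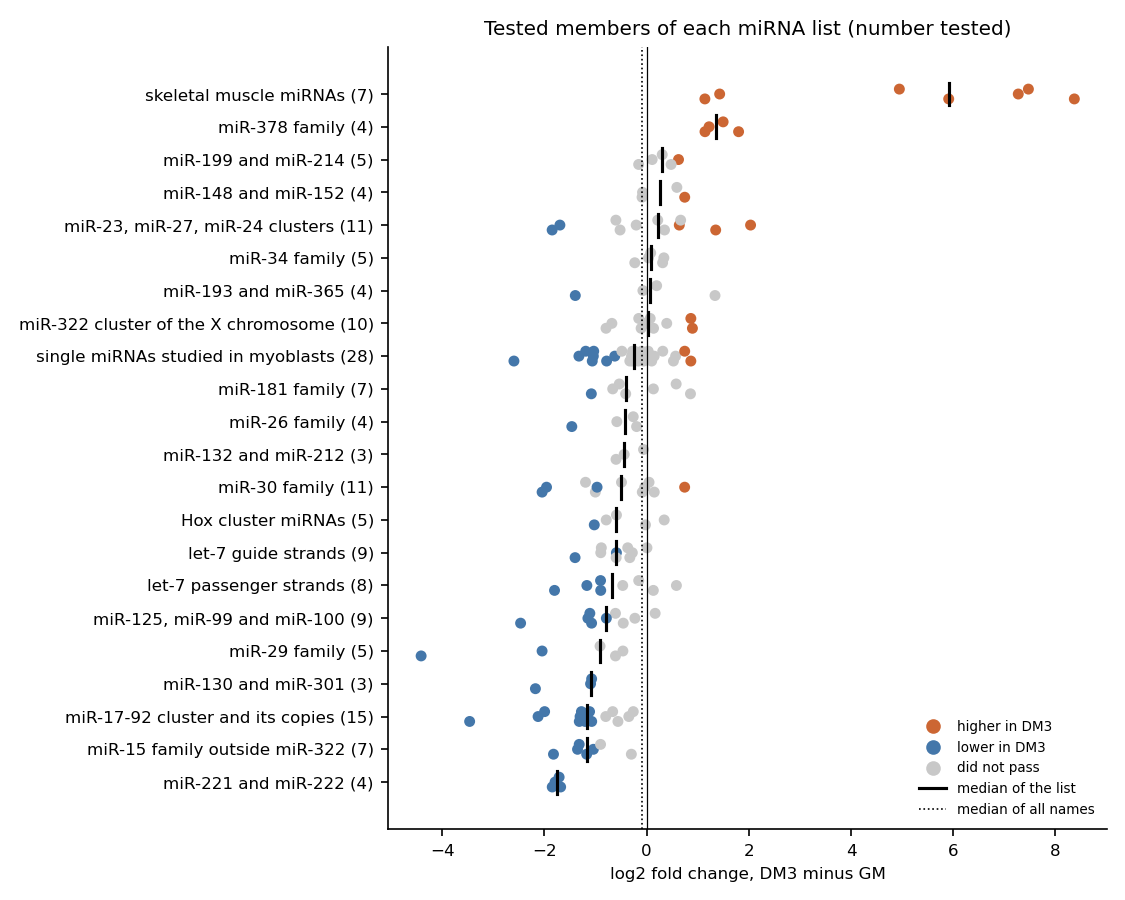
Log2 fold change of DM3 over GM for the tested members of 22 miRNA lists (number tested in brackets), ordered by the median of each list; colour gives the edgeR call, the short bar the median of the list and the dotted line the median of all 370 names. All 7 muscle names and all 4 miR-378 names are higher in DM3 (of all names 18.4% are). All 4 miR-221 and miR-222 names are lower (of all names 19.7% are). Some of the 7 muscle names were rare in GM and met the minimum count through DM3.

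Passenger strands gave some of the larger changes, and the ratio of the 2 arms within a hairpin does not depend on scaling between libraries. For rare arms it does depend on depth, through the pseudocount added to each raw count. Of 100 hairpins with enough reads on each arm, 13 changed their 5p to 3p ratio (13%, limma, adjusted p under 0.05), 7 towards 5p and 6 towards 3p. The count was 8 without the DM3 library of population 2, replicate 1, 24 without that of population 2, replicate 2 and 6 among hairpins with a mean of at least 100 counts on each arm. With the pairs as a block it was 25, which included all 13. In 9 of the 13 the arm that dominated in GM gained further, and in 4 it lost. Over all 100 hairpins the dominant arm gained in 57 and lost in 43, with a median change of 0.12 on the log2 scale.

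MiR-27a had the clearest arm change, and the hairpins of miR-27a and miR-27b are printed with both mature arms in capitals because their arms moved apart (GRCm38.p6, chr8:84208672-84208758 and chr13:63300712-63300784, plus strand).
Mir27a: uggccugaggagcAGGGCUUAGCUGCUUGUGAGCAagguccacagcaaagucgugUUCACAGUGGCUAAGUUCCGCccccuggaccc
Mir27b: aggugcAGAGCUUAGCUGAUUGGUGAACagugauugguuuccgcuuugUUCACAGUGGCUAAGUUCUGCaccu
The log2 ratio of miR-27a-5p to miR-27a-3p was -3.75, -4.05, -3.99 and -3.78 in GM and -6.61, -6.07, -7.16 and -5.92 in DM3, which differ by -2.55 ± 0.28 (limma adjusted p = 3.64e-05). The 5p arm alone went from 977 ± 182 CPM in GM to 271 ± 95.6 CPM in DM3, without overlap. For miR-27b the ratio was -7.16 ± 0.45 in GM and -8.80 ± 0.54 in DM3 (limma adjusted p = 0.00376), with a 5p arm whose level did not pass.

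MiR-30b and miR-30e changed in the opposite sense. The log2 ratio of miR-30b was 1.89 ± 0.20 in GM and 3.98 ± 0.60 in DM3 (limma adjusted p = 0.00181), where the passenger miR-30b-3p fell from 116 ± 25.6 CPM in GM to 26.5 ± 14.6 CPM in DM3. That of miR-30e was 1.68 ± 0.20 in GM and 3.43 ± 0.89 in DM3 (limma adjusted p = 0.0153, and 0.0591 without the DM3 library of population 2, replicate 1). MiR-671 went from -2.60 ± 0.39 to -0.25 ± 0.97, its 5p arm rising as its 3p arm fell. MiR-1934 and miR-195a moved towards 5p by 2.58 and 1.96 (limma adjusted p = 0.0126 and 0.0211), and both calls were lost without the DM3 library of population 2, replicate 1 (0.055 for each). That of miR-195a was also lost without the GM library of population 2, replicate 1 (0.055) or the DM3 library of population 1, replicate 1 (0.051). Both hairpins had few reads in DM3, where miR-1934-3p was at 6.21 CPM on average. In the DM3 library of population 1, replicate 1, miR-195a had 1 read on the 5p arm and 0 on the 3p arm. The ratio of miR-195a in that library was set by the pseudocount.

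Toward 3p, miR-615, miR-328 and miR-185 moved by -2.18, -1.93 and -1.89 (limma adjusted p = 0.00376, 0.00404 and 0.00404). MiR-615 lies in the HoxC locus, and its 5p arm is rare, 14.6 ± 2.24 CPM in GM and 2.38 ± 2.14 CPM in DM3. With a pseudocount of 5 in place of 1 its adjusted p was 0.11. MiR-29b-1-5p, the passenger of miR-29b-1, had 551 reads in GM and 8 in DM3, and those 8 came from the library of population 2, replicate 2. Its ratio per scaled read, GM over DM3, was 20.4 (95% counting interval 10.3 to 47.6). MiR-29a-3p, the abundant guide of that family, was at 19743 ± 2932 CPM in GM and 14335 ± 824 CPM in DM3. It did not pass without the block (edgeR adjusted p = 0.0905), although it was lower in DM3 in every pair and its groups did not overlap.

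**Figure D4:**
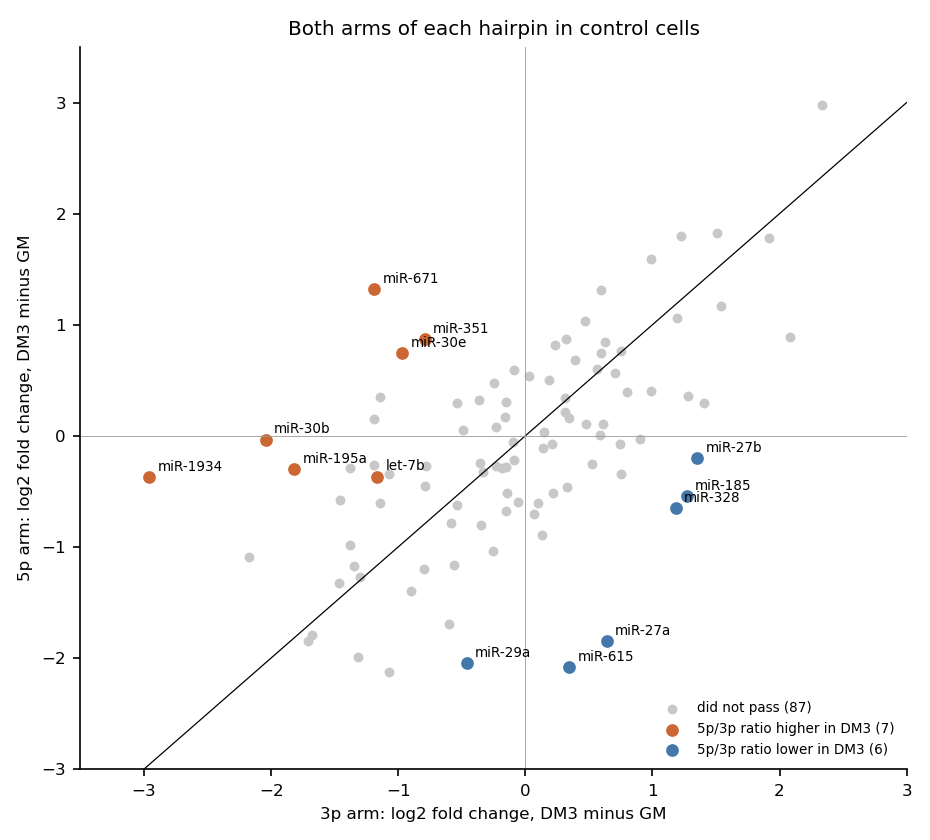
Log2 fold change of DM3 over GM of the 5p arm (vertical) against the 3p arm (horizontal) for 99 of the 100 hairpins, with the diagonal of equal change; colour marks the 13 whose arm ratio passed in limma. MiR-133b, both of whose arms rose, lies outside the axes, and miR-27a and miR-671 lie in quadrants where the arms moved in opposite directions.

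Some other large rises were of names whose reads lie outside an annotated hairpin or are concentrated in 1 library. MiR-6240-3p was at 2653, 1409.5, 2562 and 6986 CPM in GM and 15731, 23104, 100166 and 26583 CPM in DM3, so that the library of population 1, replicate 2 held several times the others (edgeR log2 fold change 3.60 ± 0.72, adjusted p = 0.00369). MiR-690 was also highest there, at 114, 141, 578 and 196 CPM in DM3 against 86.5, 58.1, 66.8 and 59.3 CPM in GM. The annotated hairpins held 0% of the reads of miR-712-5p, 22.1% of miR-3102-3p, 29.4% of miR-1981-3p and 18.5% of miR-6944-3p, and all 4 names rose (edgeR log2 fold changes of 2.98, 2.08, 1.92 and 1.91). Where the remaining reads of these names come from was not tested. MiR-5100 and miR-344-3p, with all reads in a hairpin, rose 4.17-fold and 3.63-fold (edgeR adjusted p = 1.46e-04 and 1.46e-04).

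Summed over shared seeds, 107 of 300 seed families differed (35.7%, edgeR), 48 higher and 59 lower, the latter 33 without the GM library of population 2, replicate 1. Families were scaled by their own TMM factors, so their CPM differ slightly from those of single names. The family of miR-206-3p and miR-1a-3p went from 1307 ± 329 CPM in GM to 38911 ± 20245 CPM in DM3, with a log2 fold change of 4.89 ± 0.36 (edgeR adjusted p = 1.06e-07), and the miR-133 family from 10.8 ± 6.05 CPM in GM to 2084 ± 456 CPM in DM3. The family of miR-27a-3p and miR-27b-3p rose from 39589 ± 4225 CPM in GM to 83164 ± 6271 CPM in DM3 (log2 fold change 1.07 ± 0.16, edgeR adjusted p = 1.59e-04). The miR-92a and miR-25 family, with miR-32-5p and miR-92b-3p, fell from 23916 ± 7972 CPM in GM to 6001 ± 224 CPM in DM3 (log2 fold change -1.99 ± 0.24, edgeR adjusted p = 1.89e-05).

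In other families the sum changed less than single members. The miR-125 seed, in which miR-351-5p rose, went from 62024 ± 10429 CPM in GM to 36449.7 ± 3021 CPM in DM3 (log2 fold change -0.77 ± 0.18, edgeR adjusted p = 0.00314). The miR-30 seed did not pass (41361 ± 3658 CPM in GM and 43806 ± 6587 CPM in DM3), and neither did that of miR-34 (3698 ± 693 CPM in GM and 3752 ± 823 CPM in DM3). The 5 largest falls among families were single rare names: miR-29b-1-5p, miR-92a-1-5p, miR-32-3p, miR-1934-3p and miR-219a-1-5p. Among the 5 largest rises were both miR-675 arms and miR-133b-5p, which were rare in GM and met the minimum count through DM3.

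None of the tested markers of other cell types rose (of all names 18.4% did), but few were tested: 2 neuronal, 1 endothelial and 4 smooth muscle names. The blood, epithelial and hepatocyte lists had no name with enough reads for the test. The blood list (miR-142a, miR-223, miR-150, miR-451a, miR-144) had 4 of 7 names with reads and a summed level of 4.37 to 7.21 CPM in GM and 1.26 to 5.98 CPM in DM3, with miR-451a at 0 reads in every DM3 library. The epithelial list summed to 13.3 to 22.3 CPM in GM and 0 to 10.6 CPM in DM3, and miR-141-3p was at 0 reads in all 8 libraries. MiR-126a-3p, the endothelial marker, was at 21.2 ± 6.18 CPM in GM and 7.38 ± 4.12 CPM in DM3 and fell (edgeR adjusted p = 0.0395, at most 0.119 with 1 library left out, and lost without the GM library of population 1, replicate 1, both DM3 libraries of population 1 or the DM3 library of population 2, replicate 1). The neuronal list was at 161.6 to 206 CPM in GM and 102 to 189 CPM in DM3, and its 2 tested names, miR-9-5p and miR-129-5p, did not pass (log2 fold changes of -0.57 ± 0.31 and 0.79 ± 0.35). The miR-143 and miR-145 names that mark smooth muscle were at 26196 to 46933 CPM in GM and 23859 to 50691 CPM in DM3. Of 4 tested smooth muscle names 1 was called (of all names 38.1% were), miR-145a-3p, which fell from 648 ± 138 CPM in GM to 244 ± 136 CPM in DM3 (log2 fold change -1.38 ± 0.36, edgeR adjusted p = 0.00588). The hepatocyte list ranged from 4.81 to 28.3 CPM in GM and from 0 to 4.54 CPM in DM3, and the 41 names of the Dlk1-Dio3 imprinted cluster, several of them high in muscle stem cells, did not exceed 7.21 CPM in sum.

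The reads of DM3 libraries were shorter. The mean length of counted reads was 21.88, 21.97, 21.90 and 21.94 nt in GM and 21.75, 21.73, 21.79 and 21.73 nt in DM3, with no overlap, a difference of -0.174 nt (exact permutation test, two-sided, p = 0.029, the smallest that 4 against 4 libraries can give). With each of 104 miRNAs weighted equally the difference was -0.0222 nt (exact permutation p = 0.11). With the pairs as a block p was 0.125, the smallest that 4 pairs allow.

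Reads with bases added at the 3′ end that the genome does not encode were 27.4% ± 1.70 in GM and 26.6% ± 0.816 in DM3 (SD, n = 4 each; exact permutation test adjusted over 6 kinds of tail, p = 0.46). With each miRNA weighted equally the tailed share was 30.7% ± 1.06 in GM and 26.9% ± 1.19 in DM3, lower in all 4 pairs (exact permutation adjusted p = 0.043, raw p = 0.029). Under the same weighting single added A fell from 8.76% ± 0.348 to 7.94% ± 0.271, and single added U from 10.1% ± 0.162 to 9.26% ± 0.738 (exact permutation adjusted p = 0.043 for each, n = 4 each). Counted per read, 2 added bases were on 4.99% ± 2.29 of reads in DM3 against 3.00% ± 0.222 in GM (exact permutation adjusted p = 0.17, n = 4 each). That difference of 1.99 percentage points was 0.845 without the DM3 library of population 1, replicate 2, and -0.0746 without the names miR-6240 and miR-6236. With equal weights 2 added bases were lower in DM3, 3.77% ± 0.181 against 4.43% ± 0.286 (exact permutation adjusted p = 0.043, n = 4 each).

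Single added G did not follow the medium: it was 3.45% and 2.65% in the GM libraries of population 1 and between 0.595% and 0.710% in the other 6.

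**Figure D5:**
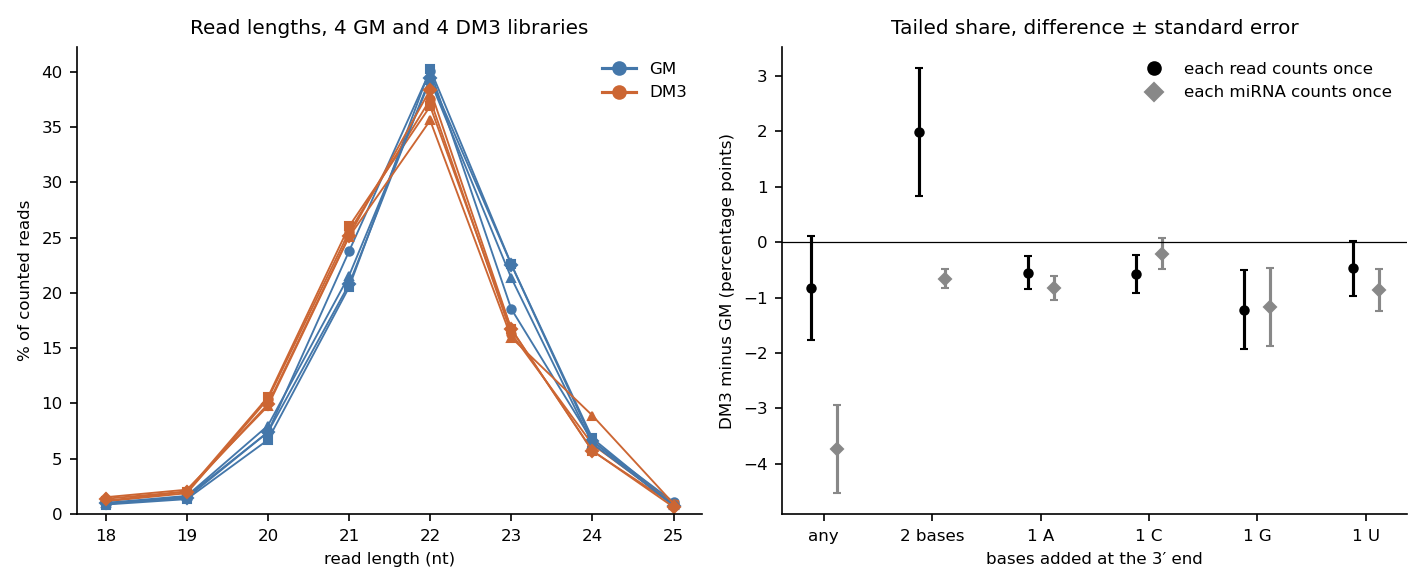
Left, share of counted reads at each length from 18 to 25 nt in the 4 GM and 4 DM3 libraries. Right, difference of DM3 minus GM in the share of reads with added 3′ bases, with the standard error of the difference, counted per read (black) or with each of 104 miRNAs weighted equally (grey): the grey points lie below zero for every kind, and the black point for 2 added bases above it.

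The leading read sequence was the same in both media for the 5 changed miRNAs examined, miR-206-3p, miR-27b-3p, miR-92a-3p, miR-7a-5p and miR-27a-5p. The commonest read of miR-206-3p was the RefSeq form, 57.2% ± 2.75 of its reads in GM and 60.8% ± 2.10 in DM3. MiR-7a-5p differed from RefSeq in being read mostly 1 base longer, as the 24-nt and 23-nt forms show.
miR-7a-5p read of 24 nt: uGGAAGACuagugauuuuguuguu
miR-7a-5p read of 23 nt: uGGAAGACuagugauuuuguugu
The longer form made up 75.2% ± 2.36 of the miR-7a-5p reads in GM and 78.1% ± 3.33 in DM3. The full-length read of miR-27b-3p made up 62.9% ± 2.46 in GM and 69.5% ± 2.20 in DM3, and that of miR-27a-5p 69.5% ± 2.16 and 77.8% ± 1.60. These shares were not tested.

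Whether the response to differentiation differed with genotype was tested as an interaction over all 16 libraries. One of them stood apart: the tKO DM3 library of clone 1, replicate 1 had 66120 counted reads, 58.6% of its listed reads, and 18.9% of its listed reads were under 18 nt. With it, none of 443 names passed (0%, edgeR), 20 had an unadjusted p under 0.05, and no other tool was run for this test. Without it, 2 of 468 names passed (edgeR), miR-206-3p with a difference of the log2 fold changes, control minus tKO, of 6.12 ± 1.00 (adjusted p = 0.00522) and miR-1a-3p with 9.07 ± 1.76 (adjusted p = 0.0211). With all 16 libraries the differences were 5.06 ± 1.36 for miR-206-3p and 8.88 ± 1.77 for miR-1a-3p (edgeR adjusted p = 0.446 and 0.0545). Both are deleted in tKO, so these values restate the deletion and say nothing of the response of the other miRNAs. In tKO the log2 fold changes with and without that library were 7.53 and 7.40 for miR-133a-3p, 1.56 and 1.62 for miR-27b-3p, -2.35 and -2.38 for miR-7a-5p, and -2.13 and -2.29 for miR-92a-3p, each past the edgeR threshold in both fits.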

How the data were processed

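Small RNA libraries (NEBNext kit, total RNA, gel-selected inserts) were deposited as 1 table per library that lists each sequence assigned to a miRNA with its reads. The deposited values are expected counts: reads per sequence, split by the bases added at the 3′ end, per the file headers, with a few fractional values among mostly whole numbers. Per the submitters' processing notes, cutadapt 1.15, STAR 2.5.4 and the mm10 build were used, and the role of each is not given in the sources used here. Rows of 18 to 25 nt without a listed mismatch were summed per miRNA name and rounded. Names were tested with edgeR 4.0.16 (R 4.3.3) by the quasi-likelihood test with TMM scaling and filterByExpr (minimum count 10). Arm ratios were tested with limma 3.58.1 (pseudocount 1, mean of at least 20 counts on each arm), and shares and lengths by exact permutation. The edgeR and limma p-values were Benjamini-Hochberg adjusted over all features. Those of the tail shares were adjusted over the kinds of tail, and that of the mean length was not adjusted. Counted reads per control library ranged from 194915 to 5726648, and 3 reads, taken as the limit of a count of 0, were 0.553 to 12.2 CPM after scaling.

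The text names, by rule, up to 12 names in each direction with the largest change among those called, at 100 CPM or more and without overlap, the muscle list, the 10 most abundant names in each medium, up to 4 called members of each other list, and up to 5 seed families and arm ratios in each direction. Other members of the lists that are named were chosen after their values were seen. The comparison, the lists and the tests were chosen with earlier results of these data known. The libraries were paired by population and replicate number. Deviations from the group means of libraries with the same numbers correlated at 0.143 to 0.557 in the 4 pairs (230 names). Libraries with other numbers correlated at -0.767 to 0.509, and 2 of the 4 GM libraries correlated best with a DM3 library other than their own partner. Depth followed the same order of numbers in both media, so these correlations cannot tell pairing from depth, and the pairing rests on the labels alone. On simulated counts for the 370 names, the test called 64.9% of names changed by a log2 of 1, 100% of those changed by 2 and 1.80% of unchanged names. In simulated arm ratios of 100 hairpins it called 83.3% of those changed by 1.5 and 4.29% of unchanged ones. The simulations gave all names the same dispersion and all hairpins the same spread between libraries. Many hairpins here spread more than that, such as miR-30e in DM3 (SD 0.89), so the shares for these data can be less favourable. Sequences of 68 of the 81 tested names that the rule chose were found in the RefSeq table. Alternatives covered scaling, filters, DESeq2 1.42.0, the rows counted, depth, pairing and each library left out.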

Additional observations from a re-analysis of the deposited data

Results flagged for a closer look

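In 15 of 196 groups of 4 libraries, 1 library stood far from the other 3 by Dixon's criterion, where chance alone flags about 1 in 20. The DM3 library of population 1, replicate 2 did so for miR-6240-3p (100166 CPM, the others 15731 to 26583), for miR-486b-5p (499 CPM, the others 254 to 269) and for reads with 2 added bases (8.42%, the others 3.77% to 3.95%). The GM library of population 1, replicate 1 was high for miR-712-5p (45.7 CPM), miR-99b-5p (77208 CPM), miR-30d-5p (36868 CPM), miR-378a-3p (10904 CPM), miR-378a-5p (497 CPM) and miR-378c (21.6 CPM) and low for miR-322-3p (425 CPM, the others 744 to 794). The DM3 library of population 2, replicate 1 was high for miR-378c (59.8 CPM). The DM3 library of population 1, replicate 1 was low for miR-100-5p (3346 CPM) and miR-193a-5p (8.14 CPM). MiR-133b-5p at 0.184 CPM in GM and miR-29b-1-5p at 3.35 CPM in DM3 were seen only in population 2, replicate 2 of that medium, the deepest library of each. For miR-143-3p, with a log2 fold change of 0.0303 over all 4 pairs, both pairs of population 1 moved one way and both of population 2 the other, a difference that was not tested.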

How the results depend on the processing

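With the pairs as a replicate block the test called 185 names, 141 of them shared with the unblocked 141, and 25 arm ratios (11 towards 5p, 14 towards 3p), and of the 81 tested names chosen by rule it changed only the call of let-7i-5p. Under other settings the number of names called (higher, lower) moved as follows. It was 231 (127 higher) with all listed rows and lengths, 107 of them shared, and 82 (34 lower) with counts thinned to the smallest library, 73 of them shared. With replicate 1 alone it was 80 (36 and 44), 68 of them shared, and without the population 1, replicate 2 pair it was 83 (40 and 43). A mean of at least 50 counts gave 44 higher. Leaving out 1 library gave 97 to 163 names, 46 to 83 higher and 51 to 80 lower, 72 to 120 seed families, 39 to 51 higher and 33 to 73 lower (33 without the GM library of population 2, replicate 1), and 8 to 24 arm ratios, 3 to 11 towards 5p and 5 to 13 towards 3p (8 without DM3 population 2, replicate 1, and 24 without replicate 2 of it). A mean of at least 100 counts on each arm gave 6 arm ratios, 4 and 2. The interaction gave 1 call with the block and 1 with total counts, both miR-1a-3p, and 2 without the tKO DM3 library of clone 1, replicate 1, miR-1a-3p and miR-206-3p, all of them miRNAs deleted in tKO. That alternative was chosen after seeing the data.

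The difference in mean length was -0.174 nt with an exact permutation p of 0.125 under the replicate block, -0.0222 nt with equal weights, and -0.188 to -0.157 nt with 1 library left out, where the exact permutation p was 0.0571 each time. Equal weights gave a difference of -3.73 percentage points in the tailed share, and for 2 added bases a difference of -0.659, or -0.0746 without miR-6240 and miR-6236, which turned its direction. The log2 fold change of miR-143-3p turned to -0.22 without the filter, -0.0241 with 16 libraries, -0.31 with all rows, -0.0507 and -0.0766 with replicate 1 or 2 alone, and ranged from -0.13 (without DM3 population 2, replicate 2; also negative without GM population 1, replicate 1) to 0.21 with 1 library left out. That of miR-30d-5p turned to -0.0671 without the filter, -0.25 with all rows and -0.0804 with replicate 2 alone. With all rows miR-615-3p was at -0.000918, miR-26b-3p at 1.39 and miR-675-5p at -0.0233. The cause of these changes was not tested.

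Of 73 called names chosen by rule, 51 kept their call with each library left out in turn, 71 with total counts and 73 with DESeq2's test. Counting sequences without a mismatch is the setting used here, so that alternative gave the same counts. The shallowest DM3 library limits rare names.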

Other observations

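MiR-6539 had the lowest log2 fold change of the 370 names and was chosen after its values were seen. It was at 55.3, 92.2, 37.9 and 49.4 CPM in GM and at 0, 0, 0 and 2.09 CPM in DM3, so no DM3 library overlapped the GM libraries (log2 fold change -5.45, edgeR adjusted p = 2.73e-06). Its level in GM was under the 100 CPM that the choice of named miRNAs asked for.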
